A study of Homo sapiens with 4 samples.

Results

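The genes described here encode 10 enzymes that make serine, pass its carbon through the folate cycle, or make asparagine. They were taken by symbol from the deposited table of normalised counts, which held all 10 among its 56832 genes: PHGDH, PSAT1, PSPH, SHMT1, SHMT2, MTHFD1, MTHFD2, MTHFD1L, ALDH1L2 and ASNS. RNA was sequenced from A375, an established human melanoma cell line labelled wild type, grown in DMEM with serum. One group of plates received 1 mM octanoate, a saturated medium-chain fatty acid, for 48 h, and the control group received the isopropanol vehicle for the same time. Each group had 2 libraries. The labels do not say whether replicates came from separate cultures. The p-values thus measure only the spread between these libraries, partly shared over genes of like level, and that spread may be technical.

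Cells build serine from a glycolytic intermediate in 3 steps, catalysed by PHGDH, PSAT1 and PSPH in that order. Serine hydroxymethyltransferases then split serine into glycine and a carbon unit carried on folate. This chemistry runs in parallel in mitochondria, through SHMT2, MTHFD2, MTHFD1L and ALDH1L2, and in the cytosol, through SHMT1 and MTHFD1, with formate passing between the compartments. Proliferating cells use the carbon units for purine and thymidylate synthesis. Several of these genes, with ASNS, are textbook targets of ATF4, a transcription factor of the integrated stress response that binds C/EBP-ATF response elements, while MYC binds E-boxes.

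Promoter letters are shown first, because ATF4 and MYC are textbook regulators of several of these genes. RefSeq promoter windows (GRCh38.p14) were present for 7 of the 10 genes, in 11 windows of 250 bases upstream of an annotated start. PSPH, SHMT2 and ALDH1L2 had no entry. The motif TGATGNAA, the letters of the C/EBP-ATF response element, was searched on both strands and occurred for 2 of the 7 genes, ASNS and MTHFD1L. By window this was 3 of 11, of which those of MTHFD1L overlap each other, and 3.14% of all 35116 such windows held it. The E-box CACGTG occurred for 2 of the 7 genes, MTHFD1L and MTHFD1, in 3 of 11 windows and in 6.34% of all windows. The MTHFD1L windows with an E-box overlap each other and hold the same match. In the following stretches of 30 bases, capitals mark the match and nothing else.

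ASNS, chr7:97872458-97872487, minus strand, TGATGNAA match beginning 68 bases before the start: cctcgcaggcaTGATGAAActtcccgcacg

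MTHFD1L, chr6:150866346-150866375, plus strand, TGATGNAA match beginning 129 bases before the start: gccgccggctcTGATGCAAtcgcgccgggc

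MTHFD1L, chr6:150866320-150866349, plus strand, CACGTG match beginning 154 bases before the start: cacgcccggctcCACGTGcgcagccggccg

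None of the matches overlapped a match of the other motif. PHGDH, PSAT1, MTHFD2 and SHMT1 held neither motif in these windows. That says only that these letters are absent from the windows searched. Another motif, CCAAT, was added after the sequences had been read. It was present for 6 of the 7 genes (all but ASNS), among them SHMT1 and MTHFD1, which fell. By window this was 8 of 11, against 32.0% of all windows. The MTHFD1L windows with CCAAT overlap and hold the same match, so these windows are not separate sites. Exons of GENCODE 29, of any gene, covered all 250 bases of the MTHFD1 window, 249 for MTHFD2 and 219 for PHGDH. They covered 134 in the ASNS window with the TGATGNAA match, 13 for SHMT1 and at most 55 for MTHFD1L. The PSAT1 window, which held 3 matches and overlapped no exon of GENCODE 29, is given whole with CCAAT in capitals.

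PSAT1, chr9:78296875-78297124, plus strand: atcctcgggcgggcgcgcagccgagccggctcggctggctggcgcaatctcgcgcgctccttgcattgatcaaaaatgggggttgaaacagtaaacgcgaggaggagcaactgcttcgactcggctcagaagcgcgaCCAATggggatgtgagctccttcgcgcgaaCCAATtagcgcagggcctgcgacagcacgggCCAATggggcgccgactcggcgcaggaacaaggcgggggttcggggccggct

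The libraries held between 67785956 and 78005035 recovered reads. Groups were compared with limma on log2(normalised count + 1) over 20250 genes and p-values were adjusted by Benjamini and Hochberg over all of them; below, called means an adjusted p under 0.05. The share called was 29.9% of all genes tested, 16.2% higher and 13.7% lower under octanoate, and 54.1% of calls were higher. After correction for GC content and length, that share was 42.2%, but over only 15183 genes, so the shares are not over the same genes. As a check of the label, SOX10, a melanocyte lineage factor, lay between 34072 and 41363 normalised counts, while the pigment enzyme gene TYR lay between 1.93 and 3.93. Summed over 6 markers of leukocytes, endothelium, epithelium and fibroblasts, the level was 717 and 722 in vehicle and 628 and 651 in octanoate. None of these markers was at 0. Of the other melanocyte and melanoma markers, MITF and S100B were called lower, PMEL was called higher, and MLANA, S100A1 and DCT (log2 difference -0.83) were not called. PMEL, at 65.8 to 98.2 normalised counts, MLANA, DCT and TYR lay below COL1A1 (228 to 394), DCN and PECAM1 in every library. The check of the label thus rests mainly on SOX10, MITF (2414 to 3533) and S100B (1746 to 4234), which lay above those markers of other cell types in every library. COL1A1 was called lower and PECAM1 higher, and the part of these genes in the results below was not tested. In bulk RNA, fewer cells of a kind and less RNA per cell cannot be told apart.

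Of the 10 genes, 6 rose under octanoate (PHGDH, PSAT1, MTHFD2, MTHFD1L, ALDH1L2 and ASNS), 2 fell (SHMT1 and MTHFD1) and 2 were not called (PSPH and SHMT2). Thus 8 of 10 were called, against 29.9% of all genes tested. Among the 9003 genes averaging 1000 normalised counts or more, the range that holds 9 of the 10, the share was 38.1%, with 18.1% higher and 20% lower. For each of the 10 genes both libraries of a group lay on the same side of both libraries of the other, as they did for 63.1% of all genes tested. The median log2 difference of the 10 was 0.26, and that of all genes tested was 0.01. The genes were chosen with earlier results of these data known, so these counts are descriptions. Apart from ASNS, each gene rested on 3173 to 31155 reads per library.

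**Figure D1:**
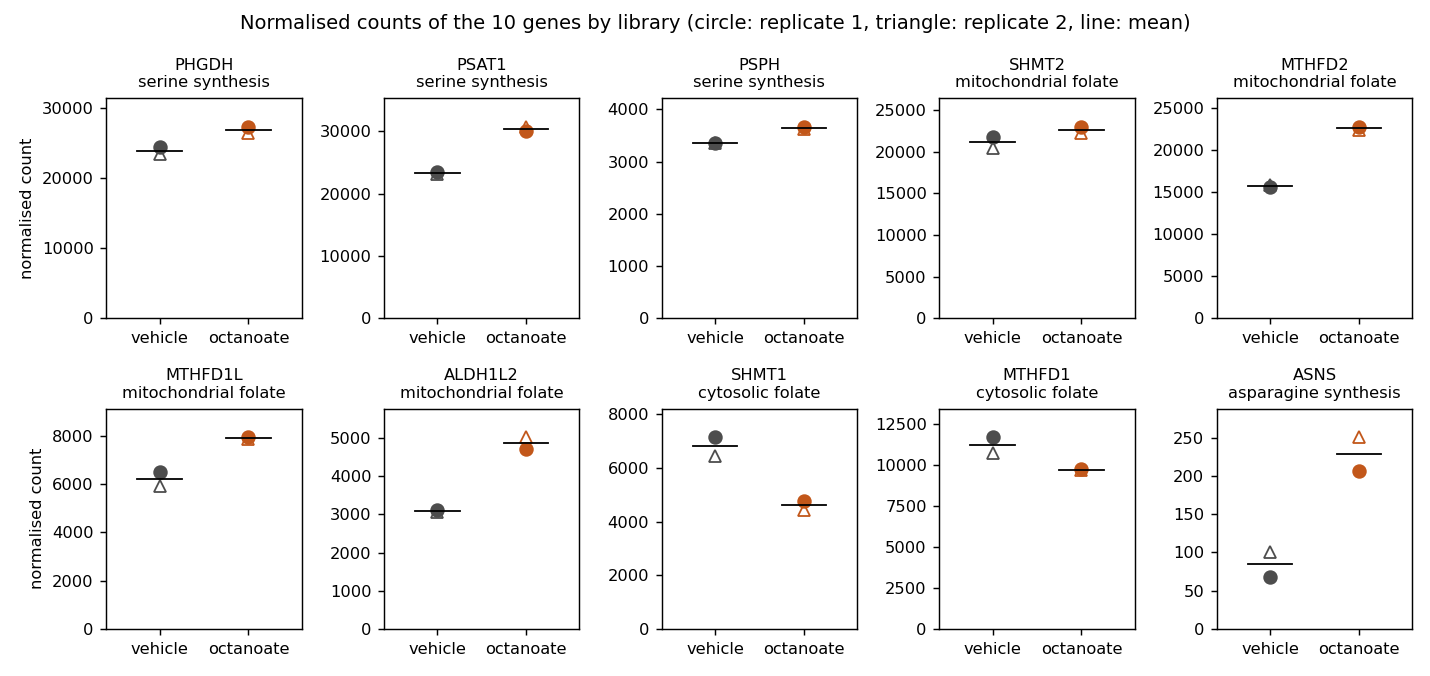
Normalised counts of the 10 genes (y axis, from 0, one scale per panel) in the vehicle and octanoate libraries (x axis); circles are replicate 1, triangles replicate 2 and lines group means. SHMT1 and MTHFD1 are lower in both octanoate libraries and the other 8 genes are higher in both.

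PHGDH encodes phosphoglycerate dehydrogenase, the enzyme that commits carbon to serine. The gene lies at chr1:119648411-119744226 on the plus strand (GENCODE 29, GRCh38). Its normalised counts were 24367 and 23416 in vehicle and 27326 and 26379 in octanoate. Both octanoate libraries were above both vehicle libraries. The log2 difference was 0.17 (SE 0.06), a rise of 12.4%, with a limma adjusted p of 0.0274. This call was lost in 5 of the 17 alternative settings described below. Among the fits with a library left out, it was kept only without vehicle 1. The limma adjusted p was 0.120 with no filter on low values and 0.191 with no intensity trend. The log2 difference was 0.20 without vehicle 1, 0.14 without vehicle 2, 0.14 without octanoate 1 and 0.19 without octanoate 2. Such fits also had a larger SE, so a lost call need not mean a smaller difference.

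PSAT1, phosphoserine aminotransferase, catalyses the second step and lies at chr9:78297143-78330093, plus strand. The 4 libraries had normalised counts of 23536 and 23201 in vehicle and 29988 and 30733 in octanoate, so that the groups stood clearly apart. The mean went from 23369 ± 237 to 30360 ± 526 (SD, n = 2 each). The log2 difference was 0.38 (SE 0.06; limma adjusted p 1.34e-05). Its principal transcript shares 1113 bases at 95.2% identity with the pseudogene PSAT1P3, which had no row in the deposited table. How reads from that stretch were assigned was not tested.

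PSPH, the phosphatase of the last step, lies at chr7:56011051-56051604, minus strand. Its normalised counts were 3349 and 3351 in vehicle and 3667 and 3615 in octanoate. The log2 difference of 0.12 had a 95% interval from -0.003 to 0.24 (limma adjusted p 0.137) and was not called. A rise of the size seen for PHGDH lies inside that interval. Within a library, the ratio of PSAT1 to PHGDH was 0.966 and 0.991 in vehicle and 1.10 and 1.17 in octanoate, and the ratio of PSAT1 to PSPH was 7.03 and 6.92 against 8.18 and 8.50. The middle step thus stood higher relative to both its neighbours in each octanoate library (exact two-sided permutation p 0.333 for both ratios, the smallest that 2 libraries against 2 can give).

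Of the 4 mitochondrial folate genes, 3 rose, by unequal amounts, and SHMT2 was not called. MTHFD2 encodes the mitochondrial dehydrogenase and cyclohydrolase that turns methylene-tetrahydrofolate into the formyl form, and lies at chr2:74198562-74217565, plus strand. The 4 libraries had normalised counts of 15523 and 15804 in vehicle and 22733 and 22322 in octanoate. The log2 difference was 0.52 (limma adjusted p 8.53e-08, SE 0.06), a rise of 43.8%. Replicates differed by far less than the groups did. On the opposite strand, exons of SLC4A5 cover 27.2% of its exon bases, but SLC4A5 itself had 8.72 to 17.3 normalised counts in the 4 libraries.

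MTHFD1L, the mitochondrial ligase that releases formate, lies at chr6:150865549-151101887, plus strand. Its normalised counts were 6510 and 5941 in vehicle and 7947 and 7885 in octanoate. The vehicle libraries were the more spread of the groups, and both lay below both octanoate libraries. The log2 difference was 0.35 (limma adjusted p 7.43e-05, SE 0.06).

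ALDH1L2 encodes the mitochondrial formyltetrahydrofolate dehydrogenase, which oxidises the carbon unit to CO2 and yields NADPH. It lies at chr12:105019784-105084577, minus strand. The 4 libraries had normalised counts of 3122 and 3074 in vehicle and 4707 and 5021 in octanoate. The log2 difference of 0.65 (limma adjusted p 1.06e-08, SE 0.06) was the largest of the 4 mitochondrial folate genes. Among the genes with a mean of at least 1000, 2.18% had a larger rise than ALDH1L2.

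SHMT2, the mitochondrial serine hydroxymethyltransferase, lies at chr12:57229327-57234935, plus strand. Its normalised counts were 21779 and 20442 in vehicle and 23011 and 22247 in octanoate. The octanoate libraries were both higher, but the gap between the nearest libraries of the groups was smaller than the gap between the vehicle libraries. The log2 difference of 0.10 had a 95% interval from -0.02 to 0.22 (limma adjusted p 0.200) and was not called. SHMT2 and PSPH had nearly the same interval, and their order depended on the library: without vehicle 1 the log2 difference was 0.15 for SHMT2 and 0.12 for PSPH.

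The cytosolic folate genes were lower. SHMT1, the cytosolic serine hydroxymethyltransferase, lies at chr17:18327860-18363563, minus strand. The 4 libraries had normalised counts of 7142 and 6465 in vehicle and 4786 and 4427 in octanoate. The mean went from 6803 ± 478 to 4606 ± 254 (SD, n = 2 each), and the log2 difference was -0.56 (limma adjusted p 2.04e-07, SE 0.06), a fall of 32.3%. Among the genes with a mean of at least 1000, 1.28% had a lower log2 difference than SHMT1.

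MTHFD1, the cytosolic enzyme that joins the dehydrogenase, cyclohydrolase and formate ligase reactions in a single protein, lies at chr14:64388031-64463457, plus strand. Its normalised counts were 11708 and 10775 in vehicle and 9751 and 9695 in octanoate. Both octanoate libraries lay below both vehicle libraries. The log2 difference was -0.21 (limma adjusted p 0.00815, SE 0.06), a fall of 13.4%. Vehicle 1 weighed on this call: without it the log2 difference was -0.15 and the limma adjusted p 0.129. On the opposite strand, exons of AL122035.2 cover 8.06% of the exon bases of MTHFD1, those of ZBTB25 1.90% and those of AL122035.1 1.08%. Those of SMCR8 cover 2.69% of SHMT1, and those of AC137834.2 cover 8.83% of SHMT2. ZBTB25 was called higher, with a log2 difference of 0.34. SMCR8 was called lower, with -0.18, the direction of SHMT1. AL122035.1, AL122035.2 and AC137834.2 had no row in the deposited table. Whether counting used strand is not given in the sources used here, so reads from such stretches cannot be told apart.

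**Figure D2:**
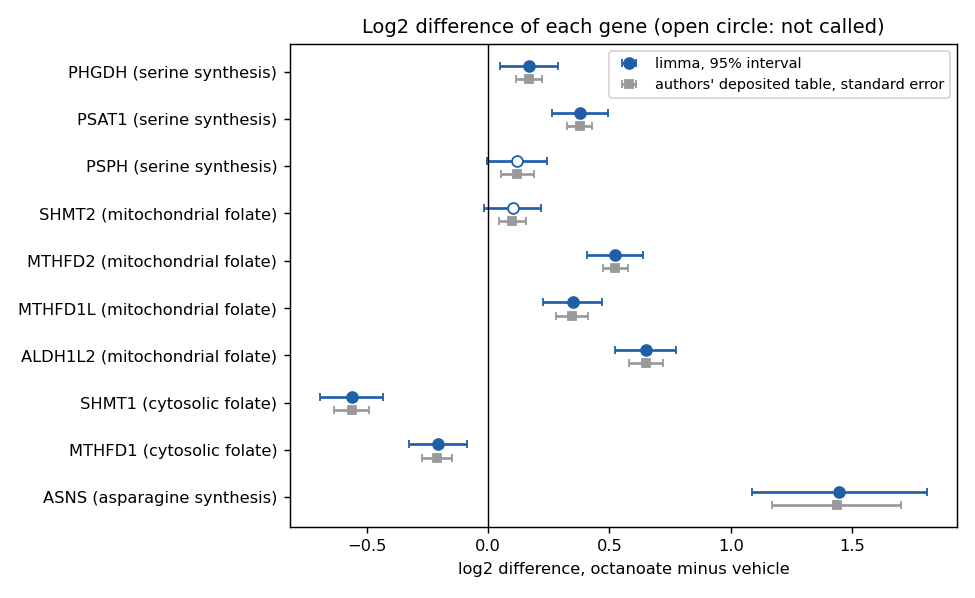
Log2 difference between octanoate and vehicle (x axis) for each gene (y axis, with its role): circles are the limma estimates with their 95% intervals, open where the gene was not called, and squares are the values of the authors' deposited table with their standard errors. SHMT1 at -0.56 and MTHFD1 at -0.21 lie left of 0, and the intervals of PSPH and SHMT2 include 0.

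In the authors' deposited table the same 8 genes had an adjusted p under 0.05. The log2 fold change given there was 0.65 for ALDH1L2, 0.52 for MTHFD2, 0.35 for MTHFD1L, 0.38 for PSAT1 and 0.17 for PHGDH in the authors' deposited table. It was -0.56 for SHMT1, -0.21 for MTHFD1 and 1.44 for ASNS in the authors' deposited table, which lists an adjusted p of 0.207 for PSPH and 0.203 for SHMT2.

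Mitochondrial and cytosolic enzymes of the same reaction were compared within each library, where a scaling factor of the library cancels. The ratio of SHMT2 to SHMT1 was 3.05 and 3.16 in vehicle and 4.81 and 5.03 in octanoate. On the log2 scale this ratio was 0.66 higher under octanoate, and the difference came mostly from SHMT1. The ratio of MTHFD2 to MTHFD1 was 1.33 and 1.47 in vehicle and 2.33 and 2.30 in octanoate, a log2 difference of 0.73 to which both genes contributed. The ratio of MTHFD1L to MTHFD1 was 0.556 and 0.551 in vehicle and 0.815 and 0.813 in octanoate, a log2 difference of 0.56. For each of these 3 ratios the groups did not overlap and the gap between them exceeded the spread of replicates, with an exact two-sided permutation p of 0.333, the smallest possible here. In all, 6 ratios were computed, and the p-value adjusted over them was 0.400 for each of the 3. Of the 6, the remaining mitochondrial to cytosolic pair, ALDH1L2 to ALDH1L1, had a log2 difference of -0.24 with overlapping groups (exact two-sided permutation p 1.0). The ratios to MTHFD1 share that gene and are not independent.

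As a summary over the folate members, the mean log2 difference was 0.41 for SHMT2, MTHFD2, MTHFD1L and ALDH1L2 and -0.38 for SHMT1 and MTHFD1. Within each library, a contrast was taken as the mean log2 level of the mitochondrial genes minus that of the cytosolic genes. This contrast was -0.01 and 0.07 in vehicle, where the mean log2 levels were thus nearly equal, and 0.79 and 0.85 under octanoate. Between the groups it differed by 0.79, which was large beside the SDs of 0.05 in vehicle and 0.04 in octanoate. It is a description, since both the members and their compartments were chosen with results known. Leaving out any one library gave 0.75 to 0.83.

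**Figure D3:**
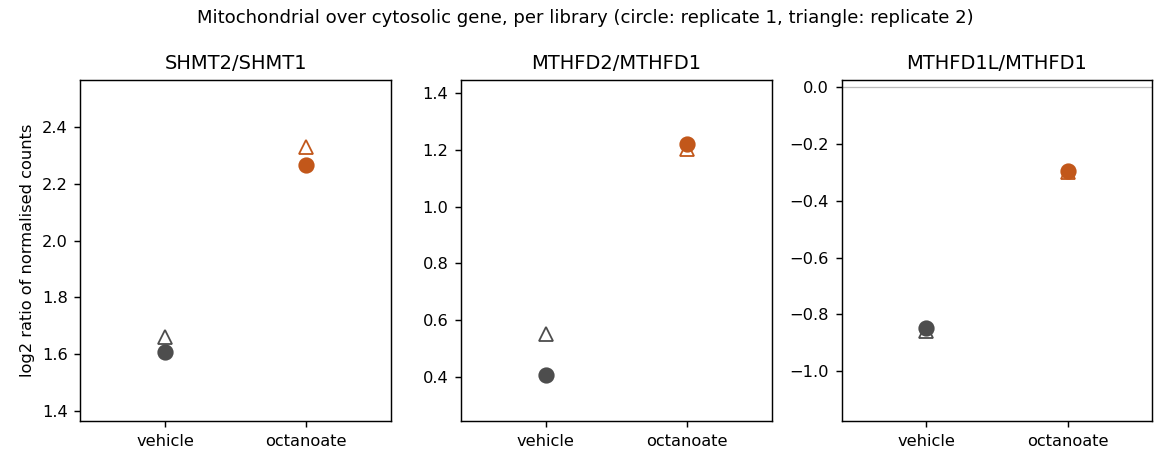
Log2 ratio of the normalised counts of a mitochondrial gene to its cytosolic counterpart (y axis, each panel spanning the same height) in the vehicle and octanoate libraries (x axis); circles are replicate 1 and triangles replicate 2. Each of the 3 ratios plotted is higher in both octanoate libraries, by 0.66 for SHMT2/SHMT1, 0.73 for MTHFD2/MTHFD1 and 0.56 for MTHFD1L/MTHFD1. The pair ALDH1L2/ALDH1L1, with a difference of -0.24 and overlapping groups, is not plotted.

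Levels were also set beside each other per kilobase of the principal GENCODE 29 transcript. In vehicle the mean normalised count per kilobase was 10680 for PSAT1, 9242 for PHGDH and 8321 for SHMT2, in that order without overlap of libraries. MTHFD1 (3585) and MTHFD2 (3515) followed and overlapped each other. SHMT1 (2761), MTHFD1L (1727), PSPH (1538) and ALDH1L2 (411) came next without overlap. Under octanoate PSAT1 (13876), PHGDH (10388) and SHMT2 (8919) kept their places, but MTHFD2 (5056) now stood above MTHFD1 (3100), and MTHFD1L (2196) above SHMT1 (1869). These levels rest on a single transcript length per gene, and which transcripts the cells use was not analysed here.

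ASNS, asparagine synthetase, makes asparagine from aspartate and glutamine and lies at chr7:97852118-97872542, minus strand. The 4 libraries had normalised counts of 67.7 and 101 in vehicle and 206 and 250 in octanoate, from 69, 104, 214 and 231 reads. Both octanoate libraries were far above both vehicle libraries, and the spread within each group was wide. The log2 difference of 1.45 (limma adjusted p 6.50e-07, SE 0.17) was the largest of the 10 genes. It was 1.16 without vehicle 1 and 1.73 without vehicle 2.

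The level of ASNS needs care. At 35.8 normalised counts per kilobase in vehicle it was by far the lowest of the 10. In GENCODE 29 the gene AC079781.5 runs over ASNS on the same strand and shares 1888 bases at 100% identity with its principal transcript, which is 80.1% of that transcript. AC079781.5 is a row of the deposited table, at 10.7 to 24.1 normalised counts. The submitters' processing notes name HTSeq, a counter that in its usual modes drops reads falling on more than a single gene, but give no mode. How many ASNS reads were dropped was not tested, so the value is the count of reads assigned to ASNS alone. The pseudogene ASNSP1 had 44.2 and 52.3 normalised counts in vehicle and 162 and 143 in octanoate. Its log2 difference was 1.64 (limma adjusted p 2.54e-07, SE 0.19). The longest stretch it shares with ASNS at 95% identity or more is 108 bases, and shorter or less alike stretches were not counted.

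Other genes of these pathways were taken from 7 lists of 66 genes, of which 63 were tested, and their overlaps with other genes were not checked. The list of other mitochondrial folate and glycine cleavage genes had 1 gene called higher and 1 lower among 7 tested, a share near the 29.9% called over all genes tested. MTHFD2L, a paralogue of MTHFD2, rose from 792 and 768 to 1166 and 1185 normalised counts, a log2 difference of 0.59 (limma adjusted p 1.91e-06, SE 0.08). GLDC, the glycine decarboxylase, fell from 1278 and 1178 to 690 and 713, a log2 difference of -0.81 (limma adjusted p 2.49e-08, SE 0.08). The mitochondrial folate carrier gene SLC25A32 had a log2 difference of -0.01 (limma adjusted p 0.918), so that not every mitochondrial folate gene was higher. The median of the list was -0.005.

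Among 11 other cytosolic folate and folate uptake genes, 1 was called higher and 2 lower, also near the share over all genes tested (29.9%), with a median log2 difference of -0.01. TYMS, the thymidylate synthase, was lower, with a log2 difference of -0.35 (limma adjusted p 0.000104, SE 0.06). FPGS, which adds the glutamate tail that keeps folate in the cell, was higher by 0.21 (limma adjusted p 0.0111). Its call was not kept without vehicle 2 (log2 difference 0.15) or without octanoate 1 (0.16). ALDH1L1, the cytosolic counterpart of ALDH1L2, had only 14.7 and 15.5 normalised counts in vehicle and 34.7 and 23.8 in octanoate, and its log2 difference of 0.89 (limma adjusted p 0.0652, SE 0.36) was not called. ALDH1L2 was thus the main form by count in every library, at 136 to 212 times ALDH1L1, with no fixed direction of that ratio between groups.

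Purine synthesis, which consumes formyl-tetrahydrofolate, had 1 of 6 genes higher and 1 lower, near the 29.9% called over all genes. GART, which holds a formyl transfer step, had a log2 difference of 0.21 (limma adjusted p 0.00504, SE 0.06) and ADSL, a lyase of the pathway, one of -0.40 (limma adjusted p 0.000929, SE 0.08). Of 7 methionine cycle and transsulfuration genes tested, 1 was higher and 1 lower, again near 29.9%. CTH, which releases cysteine in the last step of transsulfuration from serine, rose from 969 and 936 to 1501 and 1450 normalised counts, a log2 difference of 0.63 (limma adjusted p 3.47e-07, SE 0.07). MAT2B was lower by a log2 difference of -0.19 (limma adjusted p 0.0112). Its call was not kept without vehicle 1 (log2 difference -0.18), without octanoate 1 (-0.20) or without octanoate 2 (-0.18), so its size hardly moved.

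The enzymes of aspartate, asparagine, glutamine and proline had 5 of 10 tested genes higher and 0 lower, against 16.2% and 13.7% of all genes tested, with a median log2 difference of 0.19. ASS1, argininosuccinate synthase, which consumes aspartate, went from 157 and 170 to 529 and 474 normalised counts, a log2 difference of 1.61 (limma adjusted p 9.96e-11, SE 0.11). GLUL, which makes glutamine, rose by 0.59 (limma adjusted p 1.43e-07, SE 0.06). PYCR1, of proline synthesis, rose by 0.40 (limma adjusted p 2.48e-05) and GPT2, a mitochondrial alanine aminotransferase, by 0.29 (limma adjusted p 0.00059). Of 8 genes of serine breakdown and use, 1 was called, against 29.9% of all genes tested. It was SDSL, higher by 0.33 (limma adjusted p 0.0092). The SDSL call was not kept without vehicle 1 (log2 difference 0.30) or without octanoate 1 (0.24).

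The list of transcription factors and reference targets of ATF4 had 12 of 14 genes higher and 1 lower, with a median log2 difference of 0.56, against 16.2% higher and 13.7% lower of all genes tested. Stress response targets were already known to be higher in these libraries when the list was written. ATF4 itself went from 28967 and 27092 to 37801 and 36088 normalised counts, a log2 difference of 0.40 (limma adjusted p 1.23e-05, SE 0.06). MYC rose from 1112 and 1034 to 1698 and 1660, a log2 difference of 0.65 (limma adjusted p 1.94e-07, SE 0.07). CEBPG, a dimer partner of ATF4, rose by 0.55 (limma adjusted p 1.51e-07) and VLDLR by 0.79 (limma adjusted p 8.90e-09). CHAC1, a glutathione-degrading enzyme, had a difference of 1.46 (limma adjusted p 6.75e-13), and ATF3, a stress-induced transcription factor, one of 1.26 (limma adjusted p 1.67e-10). ATF5, named because it was the only member called lower, had a log2 difference of -0.54.

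**Figure D4:**
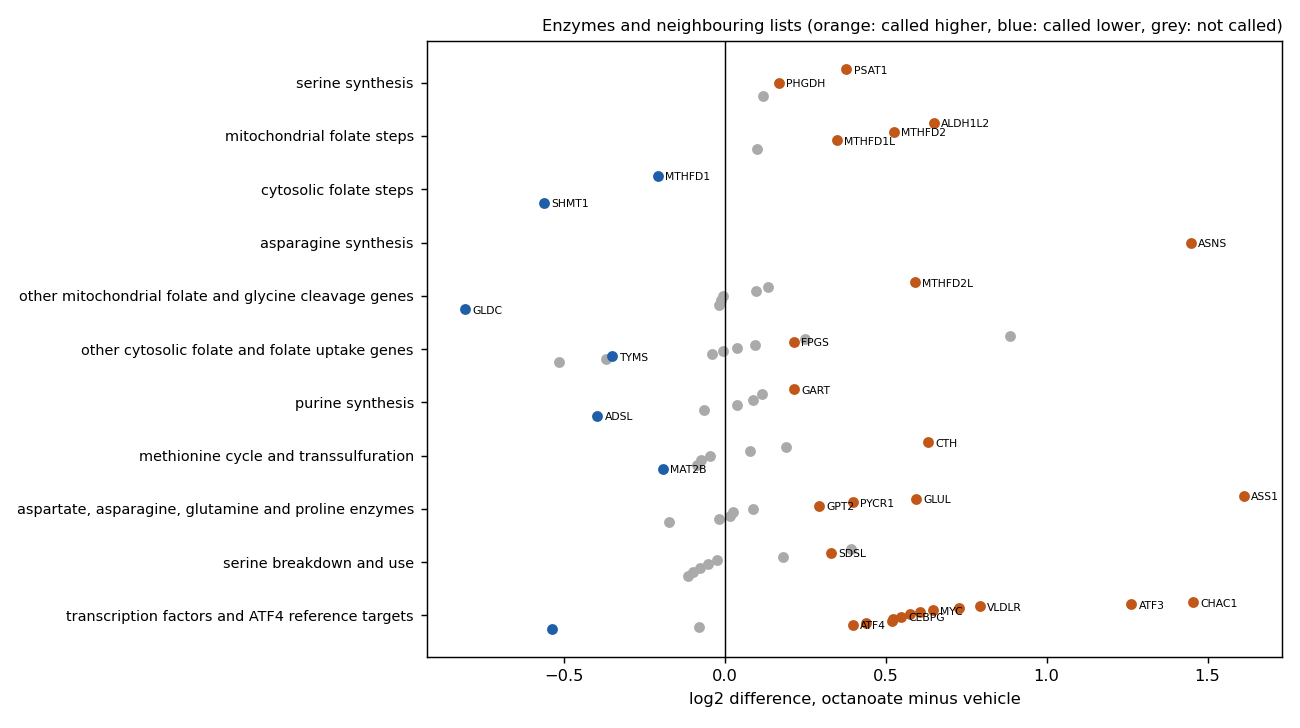
Log2 difference between octanoate and vehicle (x axis) for the tested genes of the serine, folate and asparagine enzymes and of 7 neighbouring lists (y axis); orange points were called higher, blue points lower and grey points not called, and points are spread vertically only to separate them. The cytosolic folate steps lie left of 0, the mitochondrial folate steps right of it, and 12 of 14 genes of the ATF4 list are orange.

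The genes most alike in pattern to PSAT1, MTHFD2 and ASNS were sought among the 9003 genes with a mean of at least 1000, by the Euclidean distance of centred log2 values over the 4 libraries. Those nearest to PSAT1 were ASPH, ECHDC2 and ABCA1, at distances of 0.012 to 0.017. Those nearest to MTHFD2 were NFASC, NLK and KLF7, at 0.017 to 0.031. Among the genes searched, ASNS had no neighbour as close: SEMA3D, ITGA1 and SLC2A13 lay at 0.35 to 0.40. With a mean of 156, ASNS itself lay outside the range searched, so genes of its own level were not compared. With 4 libraries in 2 groups, such a distance mainly says that the difference between groups was of like size.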

How the data were processed

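The deposited signal is a DESeq2-normalised count per gene and library, per the file headers. The submitters' processing notes name bcl2fastq 2.17, Trim Galore, STAR 2.4, Picard, HTSeq 0.9.1, DESeq2 and the build hg38. The annotation and the use of strand are not given in the sources used here. The authors' deposited table of the comparison holds a log2 fold change, a test score and a p-value per gene. Every positive signal was a whole multiple of its library's smallest value within 0.001 (100% of values), which gave back whole reads. Limma 3.58.1 in R 4.3.3 was fitted to log2(normalised count + 1) for genes with a mean of at least 10, with an intensity trend and treatment as the only term. It was tested on simulated data. Each gene's variance was drawn towards that of genes of like level (prior degrees of freedom 21.2), so an SE is not the gene's own spread alone. For the 9 members other than ASNS the SE was 0.055 to 0.063. Log2 differences understate the change of low counts.

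Alternatives were other pseudocounts (0.5, 5), filters (none, mean 50), scalings, variance model and replicate block, each library left out, count models on whole reads (edgeR 4.0.16, DESeq2 1.42.0), and a correction for GC content and length. GENCODE 29 gave positions and transcripts. Shared sequence came from blastn 2.17.0 (at least 95% identity over 100 bases), and only the longest stretch per pair of genes is given. The members and lists were chosen with earlier results of these data known. Named genes were the members, a few counterparts, and per list the called genes averaging 100 or more, at most 5 by smallest p. Of the called list genes, 2 are neither named nor plotted and are not reported here.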

Additional observations from a re-analysis of the deposited data

How the results depend on the processing

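Under the 17 alternative settings no gene among the 10 changed direction, and MTHFD2 and ALDH1L2 kept their calls in all of them. With a variance prior that has no intensity trend, 1625 genes changed over all genes tested, and 2 of the 10 were called higher and 0 lower. The limma adjusted p was then 0.0534 for PSAT1, 0.0536 for SHMT1, 0.0574 for ASNS and 0.0840 for MTHFD1L. With no filter on low values, 2595 genes changed and 1 of the 10 was called lower, with PHGDH (0.120) and MTHFD1 (0.105) losing their limma calls. Leaving out a library gave 4295 to 4757 changed genes, 5 to 6 of the 10 higher and 1 to 2 lower (1 without vehicle 1), and a contrast of mitochondrial and cytosolic folate genes of 0.75 to 0.83. With a single library in a group, that library is assumed to vary like the other group. The log2 difference of SLC25A32 was -0.041 without octanoate replicate 1 and turned to 0.020 without octanoate replicate 2. Restriction to genes in GENCODE 29, added after the data were seen, changed no call among the 10. The GC content and length correction covers 15183 of 20250 genes tested (75%), too few for a check of the whole table, but all 10 members.

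What the replicate numbers mark is not stated in the labels. Deviations of same-numbered libraries had a correlation of 0.13 across 20250 genes and of 0.27 across the 13482 genes with a mean of at least 100; genes are not replicates. A fit with a replicate block called 8376 genes, 8 of the 10 higher and 2 lower, with PSPH at 0.0260 and SHMT2 at 0.0336 (limma adjusted p). With the block and the GC content and length correction together, 6 were higher and 2 lower. Low counts limit the precision of ASNS (SE 0.17) and ALDH1L1 (SE 0.36).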
